A study of Mus musculus with 175 samples.

Results

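The 7 genes described here are transcription factors of early blood progenitors: Myb, the myelocytomatosis genes Myc and Mycn with their dimer partner Max, and the globin-switch repressors Bcl11a, Zbtb7a and Sox6. They were picked by gene symbol among 49585 mouse genes and other annotated features. The rule uses no measured value, although it was set with earlier results of these data known. Their transcripts were followed in 172 of 175 single cells of fetal liver, sorted into 4 populations at embryonic day 14.5. All cells carried 1 allele of a Runx1 dual reporter, given by the sorting protocol as P1-GFP::P2-hCD4/+ and by the genotype labels as P2-GFP::P2-hCD4/+, on a C57BL/6 by ICR background. Human CD4 on the surface reports the proximal (P2) promoter of Runx1. Megakaryocyte-erythroid progenitors (MEPs) were sorted as CD34- and common myeloid progenitors (CMPs) as CD34+ cells, and both were lineage negative, Sca1-, cKit+, CD41- and CD150+. After filtering, 56 MEPs were P2- and 47 were P2+, and of the CMPs 27 were P2- and 42 were P2+. The CMP labels read low and high, taken here as P2- and P2+. For 1 P2- CMP another label names MEPs.

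Livers of 2 litters were pooled before sorting. Each population is therefore 1 sample, its cells are not replicates of a condition, and the differences below have no test and no p-value. Levels are the reads of a gene summed over a population per 1000000 summed reads on mouse genes (CPM). Intervals at 95% cover counting error only, and the method counts PCR copies of 1 molecule as separate reads. Cells had between 295064 and 1540631 reads on mouse genes. To compare how many cells held a read, each cell was first thinned to 100000 such reads. Where 4 values stand in a row, MEPs come before CMPs, and within each P2- comes before P2+. Erythroid markers summed to 2680, 1302, 661 and 362.9 CPM in this order, and stem and multipotent markers to 11.7, 130, 800 and 1165 CPM. The last of these lists holds Cd34, on which MEPs and CMPs were gated. Megakaryocytic markers summed to 99.5, 599, 509 and 626 CPM, and granulocyte/monocyte markers to 16.3, 72.2, 480 and 757 CPM. The 7 lymphoid markers had no read in any population and the 7 macrophage markers summed to at most 1.49 CPM, whereas the 6 endothelial markers reached 227.5 CPM in P2+ CMPs. The 6 mast and basophil markers summed to 0.327, 2.69, 72.8 and 34.2 CPM, and 8 immediate early genes to 537, 1219, 1092 and 1115 CPM. These marker sums moved with several results below, and their part in those results was not tested. ERCC spike-in RNA, added in the lysis step, took a median of 1.46%, 2.48%, 2.14% and 1.73% of reads.

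MYB is a DNA-binding activator needed for definitive haematopoiesis, and its level is known to fall as erythroid cells mature. MYC and MYCN each pair with MAX to bind E-box sequences and drive genes of growth, ribosome production and nucleotide synthesis. BCL11A and ZBTB7A recruit repressor complexes to the globin genes and, together with SOX6, silence the embryonic or fetal globins in adult-type red cells. Fetal liver is the organ that makes adult-type red cells at this stage.

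Start-site sequences were available for 6 of the 7 genes, from RefSeq on build GRCm38.p6, and 4 are printed: Mycn for its range of levels, its partner Max, and the repressors Bcl11a and Zbtb7a. Capitals mark matches on either strand to 3 motifs. The first is CACGTG, the E-box that MYC, MYCN and their partner bind. The second, for the erythroid factor GATA1 and its relatives, is AGATAA, for which the variant TGATAA was also allowed. The third is CCNCNCCC, the box read by KLF factors, whose matches may overlap one another. The 4 windows of 300 bases, 5′ to 3′ on the strand of the gene, are these.
Mycn (chr12:12941787-12942086, minus strand): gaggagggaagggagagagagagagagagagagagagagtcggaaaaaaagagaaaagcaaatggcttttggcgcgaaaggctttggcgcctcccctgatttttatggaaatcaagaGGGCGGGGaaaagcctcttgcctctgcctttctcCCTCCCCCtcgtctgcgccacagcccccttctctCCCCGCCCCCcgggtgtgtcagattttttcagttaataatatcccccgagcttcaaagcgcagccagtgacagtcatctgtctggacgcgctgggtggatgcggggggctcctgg
Max (chr12:76962199-76962498, minus strand): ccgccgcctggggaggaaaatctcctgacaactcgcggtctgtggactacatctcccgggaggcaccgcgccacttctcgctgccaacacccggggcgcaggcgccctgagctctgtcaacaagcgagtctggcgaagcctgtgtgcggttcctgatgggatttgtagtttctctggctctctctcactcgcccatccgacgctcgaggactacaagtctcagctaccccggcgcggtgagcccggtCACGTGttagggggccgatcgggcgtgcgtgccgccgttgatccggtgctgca
Bcl11a (chr11:24080445-24080744, plus strand): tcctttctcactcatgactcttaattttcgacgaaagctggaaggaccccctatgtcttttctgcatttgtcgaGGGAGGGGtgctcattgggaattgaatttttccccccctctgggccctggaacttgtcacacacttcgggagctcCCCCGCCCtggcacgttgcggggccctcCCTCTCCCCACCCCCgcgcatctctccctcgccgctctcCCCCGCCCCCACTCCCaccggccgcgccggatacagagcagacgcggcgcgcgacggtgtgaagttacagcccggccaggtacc
Zbtb7a (chr10:81136021-81136320, plus strand): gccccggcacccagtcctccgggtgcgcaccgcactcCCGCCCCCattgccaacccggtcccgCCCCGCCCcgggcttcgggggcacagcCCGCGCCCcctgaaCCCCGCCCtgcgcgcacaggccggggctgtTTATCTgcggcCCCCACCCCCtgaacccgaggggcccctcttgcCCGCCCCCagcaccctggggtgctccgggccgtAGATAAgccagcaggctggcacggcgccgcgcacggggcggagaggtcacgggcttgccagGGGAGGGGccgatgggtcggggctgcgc
Max held 1 E-box, a motif present in 7.15% of 32851 windows of this length. Zbtb7a held 2 GATA motifs, present in 18.6% of windows, and 8 KLF boxes. Bcl11a also held 8 KLF boxes and Mycn held 4, against 49.5% of windows with at least 1. The Myb window, not printed, held 4 KLF boxes, and of the 6 Sox6 windows 3 held a GATA motif or a KLF box. The RUNX motif TGTGGT, also searched on both strands and present in 16.8% of windows, had no match in the printed windows. It had a match in the Sox6 windows that start at 115846091 and 115824661. A match describes the letters and is no evidence of binding.

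**Figure D1:**
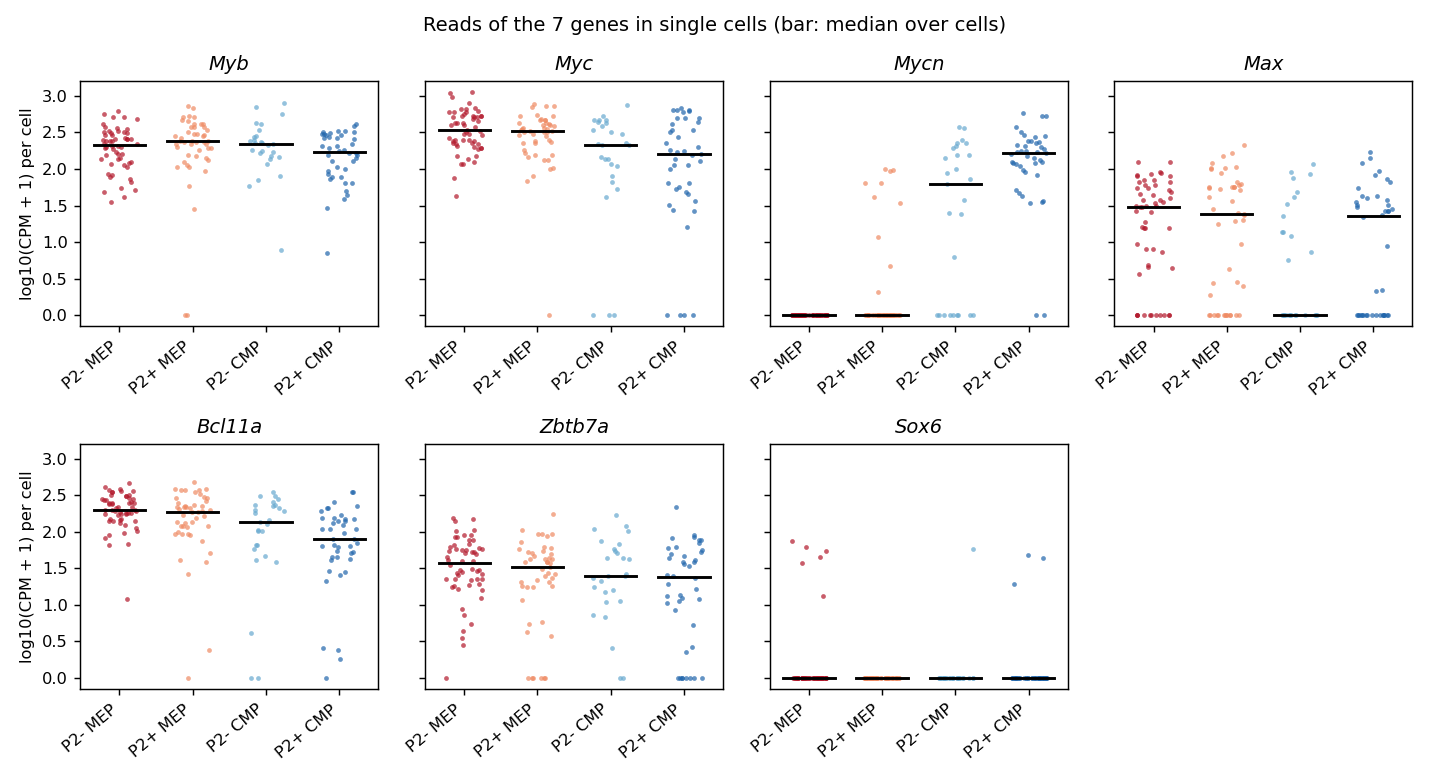
Level of each of the 7 genes in single cells, as log10(CPM + 1), in the 4 populations. Each point is 1 cell and each bar the median over cells. Mycn was at 0 in all 56 P2- MEPs and had a median of 162 CPM in P2+ CMPs, while Myb and Bcl11a were read in most cells of every population.

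Mycn went from no read at all in P2- MEPs to reads in nearly every P2+ CMP. This MYC paralogue lies on chromosome 12 (GRCm38, 12936093 to 12941914, minus strand) and its protein shares the DNA-binding domain and the MAX partner of MYC. P2- MEPs had 0 Mycn reads among 30606262, where 3 reads would have been 0.0980 CPM. P2+ MEPs had 10.0 CPM (95% interval 8.97 to 11.2). CMPs had 103 CPM when P2- (98.1 to 107) and 185 CPM when P2+ (181 to 190). The level thus rose along this order of populations, with no overlap of the counting intervals between neighbours. Single cells nevertheless overlapped. The lowest, median and highest P2+ MEP had 0, 0 and 99.6 CPM. For CMPs these were 0, 61.1 and 378.5 CPM when P2- and 0, 162 and 574 CPM when P2+. A Mycn read was found in 0 of 56 P2- MEPs, where a count of 0 allows 3 cells or 5.36% and the exact 95% interval is 0 to 6.38%, and in 8 of the 47 that were P2+ (17.02%, exact 95% interval 7.65 to 30.8). Among CMPs it was found in 18 of 27 P2- cells (66.7%, 46.04 to 83.5) and 40 of 42 P2+ cells (95.2%, 83.8 to 99.4).

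Expressed as differences, Mycn was at least 102.4-fold higher in P2+ than in P2- MEPs and at least 1048-fold higher in P2- CMPs than in P2- MEPs, with the empty population set to 3 reads. Between P2+ and P2- CMPs the log2 ratio was 0.85 (95% interval 0.78 to 0.93), below the 2-fold mark but 1.18 with ERCC reads as denominator, and between P2+ CMPs and P2+ MEPs it was 4.21 (4.04 to 4.37), or 18.5-fold. Reads of Cd34, the antigen on which MEPs and CMPs were gated, ran in the same order, at 0.0327, 13.05, 274.3 and 541 CPM. Cd34 is also in the list of stem and multipotent markers, and its own Spearman correlation with Mycn over all 172 cells was 0.79. Over all 172 cells the Spearman correlation of Mycn was 0.79 with the summed stem and multipotent markers and -0.77 with the summed erythroid markers, as a description of cells that share their pool and differ in population and depth. In P2- CMPs the same values were 0.67 and -0.62, and in P2+ CMPs 0.30 and -0.19. In P2+ MEPs they were 0.31 and -0.34. With the megakaryocytic markers Mycn correlated at 0.49 in that population, and at 0.13 and 0.10 within the CMPs, P2- before P2+. Of the 27 P2- CMPs, 18 had Mycn reads, 13 had reads of the erythroid factor Klf1 and 4 had both, with a correlation of -0.75. The genes most like Mycn over all cells, among 5387 searched, were Coro1a (0.77), Tmem176b (0.77) and Fxyd5 (0.75), and within populations their mean correlations were 0.27, 0.34 and 0.33.

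Myc, on chromosome 15 (61985391 to 61990374, plus strand), ran the other way between compartments. MEPs had 394 CPM when P2- (95% interval 387 to 402) and 345.7 CPM when P2+ (339.2 to 352.2), and CMPs had 252.7 CPM (245.5 to 260.1) and 253.9 CPM (248.7 to 259.1). Both MEP populations were above both CMP populations, and the CMP intervals overlapped. The lowest, median and highest MEP had 42.4, 335.6 and 1124 CPM when P2- and 0, 328.6 and 782 CPM when P2+. For CMPs these were 0, 214.9 and 753 CPM and 0, 159 and 679.8 CPM. A Myc read was found in 56 of 56, 46 of 47, 24 of 27 and 38 of 42 cells. The quartiles lay farthest apart in P2+ CMPs, where the lower was 47.99 CPM and the upper 391 CPM. The log2 ratio of CMPs over MEPs was -0.64 (-0.69 to -0.59) for P2- cells and -0.45 (-0.49 to -0.41) for P2+ cells, and with ERCC reads as denominator these were -1.16 and -0.01. Set between P2+ and P2- cells it was -0.19 (-0.23 to -0.15) in MEPs and 0.01 (-0.04 to 0.06) in CMPs, and the CMP value changed sign between normalizations. The genes most like Myc were Pgm1 (0.41), Blvrb (0.39) and Alad (0.39), of which Blvrb and Alad encode enzymes of haem metabolism.

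**Figure D2:**
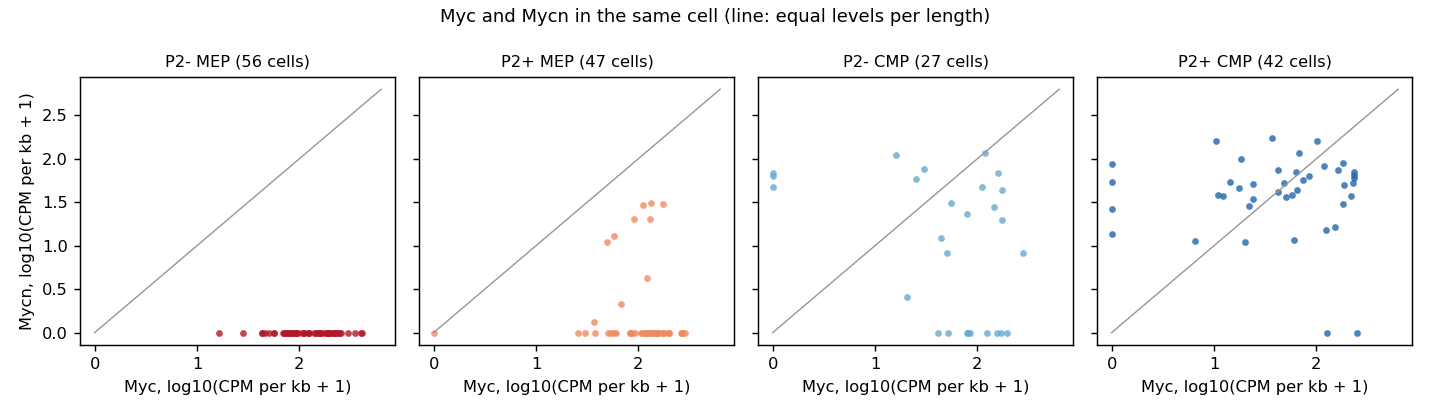
Myc on the horizontal and Mycn on the vertical axis in the same cell, each as log10(CPM per kb of exon + 1), for the 4 populations. Points are cells and the line marks equal levels per length. All 56 P2- MEPs lie on the Myc axis, whereas 20 of 42 P2+ CMPs lie above the line.

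Set per kb of exon, the 2 paralogues could be compared with each other. Myc had 145, 127, 93.02 and 93.4 CPM per kb in the 4 populations, and Mycn 0, 3.05, 31.2 and 56.2. Mycn made up 0%, 2.34%, 25.1% and 37.6% of their sum, a share that does not depend on the denominator of the CPM. The sum itself was 145, 130, 124 and 150 CPM per kb. The summed level of P2+ CMPs therefore lay near that of P2- MEPs, although Mycn supplied none of it in P2- MEPs. The log2 ratio of the sum in P2+ CMPs over P2- MEPs was 0.04, and it was -0.14 with ERCC reads as denominator, under which P2+ MEPs and P2- CMPs were at -0.77 and -0.74. Within single P2+ CMPs the Mycn share had a median of 46.5% and quartiles of 22.1% and 72.1%. Mycn exceeded Myc per length in 20 of 42 P2+ CMPs, in 6 of 27 P2- CMPs and in 0 cells of either MEP population. Both genes were read in 36 P2+ CMPs, Mycn alone in 4 and Myc alone in 2. In P2- CMPs both were read in 15 cells, Mycn alone in 3 and Myc alone in 9. The correlation of Myc with Mycn was -0.35 in P2- CMPs and -0.01 in P2+ CMPs.

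Max, the shared partner on chromosome 12 (76937269 to 76962201, minus strand), had 36.1 CPM (95% interval 33.97 to 38.3) and 38.8 CPM (36.7 to 41.1) in the MEPs, P2- before P2+, and 20.7 CPM (18.7 to 22.9) and 29.6 CPM (27.9 to 31.4) in the CMPs. Its level was lowest in P2- CMPs, and the MEP intervals overlapped. Median cells had 29.7, 22.98, 0 and 21.6 CPM and the highest 125, 211.5, 118 and 169 CPM, with a lowest cell of 0 in each population. A read was found in 38 of 56, 29 of 47, 10 of 27 and 22 of 42 cells. Between P2+ and P2- cells the log2 ratio was 0.11 (-0.01 to 0.22) in MEPs and 0.51 (0.34 to 0.69) in CMPs, and for CMPs over MEPs -0.80 (-0.97 to -0.63) in P2- cells and -0.39 (-0.51 to -0.27) in P2+ cells. Without the CMP of conflicting label the P2- value was -1.07, beyond 2-fold. With ERCC reads as denominator the MEP value was -0.51, and CMPs over MEPs were at -1.31 and 0.04, so that the direction in MEPs and among P2+ cells rests on the scaling. Per length Max, at 5.76 to 10.8 CPM per kb, was below Myc in every population.

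Among 9 other genes of the MAX network, 8 had a mean count of at least 1 per cell. Those with the highest levels were Mga, a large MAX-binding repressor, Mlxip, a glucose-sensing partner of MLX, and Mlx itself. None of these 3 passed 2-fold in any comparison. Of the MAX-binding antagonists of MYC, Mxd3 and Mxd4 did, whereas Mxd1, Mxi1 and Mnt did not. This made 1, 1, 2 and 2 of 8 genes for P2+ over P2- MEPs, P2+ over P2- CMPs, and CMPs over MEPs among P2- and among P2+ cells, beside 21.6%, 19.1%, 31.8% and 27.3% of all 11860 genes in these comparisons, so the counts were at or below that share. Mxd3 had 2.12, 15.9, 0.60 and 6.35 CPM, so that it was higher in P2+ cells in both compartments (log2 ratios 2.90 and 3.41) and lower in CMPs than in MEPs (-1.82 and -1.32). Mxd4 was higher in CMPs, with 2.58, 1.43, 16.3 and 12.9 CPM and log2 ratios over MEPs of 2.66 and 3.18. Both were read in few cells, Mxd3 in 4, 8, 1 and 5 and Mxd4 in 3, 2, 8 and 11, and 1 P2- CMP gave 67.2% of the Mxd4 reads there. Mycl, the third MYC paralogue, had 0 reads in every population.

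A list of 20 genes known as MYC targets, in ribosome production, polyamine and nucleotide synthesis, translation and the cell cycle, was abundant enough to compare throughout. Of these 20, 19 were lower in P2+ than in P2- MEPs, 18 lower in P2+ than in P2- CMPs and 17 lower in CMPs than in MEPs, for P2- and for P2+ cells alike. The medians were -0.21, -0.16, -0.42 and -0.30, beside 0.04, -0.03, 0.12 and 0.01 over all 11860 genes compared. Of all genes, 46.998%, 51.8%, 44.6% and 49.4% were lower. With ERCC reads as denominator the medians were -0.83, 0.17, -0.93 and 0.13, so that the direction in P2+ over P2- CMPs and in P2+ CMPs over P2+ MEPs rests on the scaling, beside -0.57, 0.30, -0.40 and 0.44 for all genes. Past 2-fold were 0, 0, 1 and 0 of the 20 genes, against the shares of all genes given for the MAX network. Of the 8959 genes that averaged at least 5 reads per cell, which include all 20, 13.3%, 10.1%, 22.9% and 18.6% passed. The 1 target past 2-fold was Odc1, which encodes the first enzyme of polyamine synthesis, with 184 CPM in P2- CMPs and 396 CPM in P2- MEPs (log2 ratio -1.10). Npm1, a nucleolar chaperone, fell in steps from 4798 to 4057, 3484 and 3126 CPM over the 4 populations, and Ncl, which encodes nucleolin, from 3160 to 2864, 2444 and 2208 CPM. Ldha, for lactate dehydrogenase, had 2446, 2308, 1943 and 1901 CPM. The exceptions in both comparisons of CMPs with MEPs were the cell cycle genes Ccnd2 and Cdk4, with log2 ratios over MEPs of 0.72 and 0.19 in P2- cells and of 0.31 and 0.56 in P2+ cells, beside Dkc1 at 0.07 in P2- cells and Eif4a1 at 0.11 in P2+ cells, and these 4 were picked for their values. The summed targets correlated with Myc at 0.33 and with Mycn at -0.64 over P2- CMPs, and at 0.15 and 0.05 over P2+ CMPs. In MEPs the values for Myc were 0.07 when P2- and -0.01 when P2+, and that for Mycn was 0.02 when P2+.

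**Figure D3:**
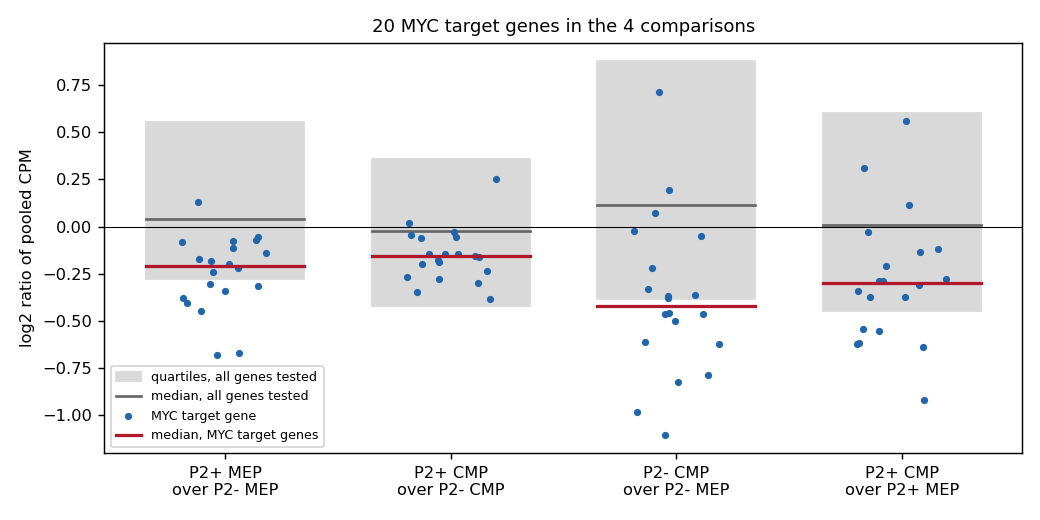
Log2 ratios of pooled CPM for 20 MYC target genes in the 4 comparisons. Blue points are genes, red bars their medians, grey bars the median and grey boxes the quartiles of all 11860 genes compared. The target medians lie between -0.42 and -0.16, each below the median of all genes, and with ERCC reads as denominator those of P2+ over P2- CMPs and of P2+ CMPs over P2+ MEPs lie above 0.

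Myb, on chromosome 10 (21124935 to 21160984, minus strand), was read in nearly every cell of each population. MEPs had 236.7 CPM when P2- (95% interval 231.3 to 242.2) and 265.1 CPM when P2+ (259.4 to 270.8), and CMPs had 234.4 CPM (227.5 to 241.5) and 184 CPM (179 to 188). P2- MEPs and P2- CMPs overlapped, P2+ MEPs were above them and P2+ CMPs below. The lowest, median and highest MEP had 34.6, 214.3 and 615 CPM when P2- and 0, 238.9 and 718 CPM when P2+. For CMPs these were 6.81, 221.5 and 791 CPM and 6.13, 170.3 and 414 CPM. These single-cell ranges overlapped throughout, and a Myb read was found in 56 of 56, 45 of 47, 26 of 27 and 41 of 42 cells. Between P2+ and P2- cells the log2 ratio was 0.16 (0.12 to 0.21) in MEPs and -0.35 (-0.41 to -0.30) in CMPs. Compared with MEPs, CMPs were at -0.01 (-0.07 to 0.04) for P2- cells and at -0.53 (-0.58 to -0.48) for P2+ cells. With ERCC reads as denominator the MEP value was -0.45 and the CMP value -0.02, so that the direction in MEPs rests on the scaling. Of the exon bases of Myb, 6.26% overlap Gm26577 on the other strand, and the counting ignored strand.

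Myb was lower in cells with more megakaryocytic marker reads in 3 populations. The correlation was -0.53 both in P2+ MEPs and in P2- CMPs, and -0.38 when CMPs were P2+. It was 0.24 in P2- MEPs, where these markers were lowest. MYB is known to restrain the megakaryocytic fate, which is background and not a reading of these values. With Bcl11a, Myb correlated at 0.26, 0.15, 0.33 and 0.23 in the 4 populations. The genes most like Myb over all cells were Rpl12 (0.39), Vim (0.33) and Kit (0.32), the last a MYB target. Kit, the stem cell factor receptor used in the sort, had 293.3, 262.2, 369.4 and 259.3 CPM and passed 2-fold in no comparison.

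Of 9 genes known as MYB targets 7 were abundant enough to compare. Besides Kit, Ccnb1, a mitotic cyclin, and Myc itself stayed within 2-fold. Bcl2, a survival gene, had 3.56, 8.11, 13.6 and 21.8 CPM in the 4 populations, and Mpo, for the granule enzyme myeloperoxidase, had 2.22, 12.7, 216.5 and 431 CPM. Both, with Cd34, were past 2-fold in P2+ over P2- MEPs and in both comparisons of CMPs with MEPs. Gfi1, a transcription factor of the granulocyte/monocyte lineage, had 0 CPM in both MEP populations and 21.3 and 21.1 CPM in the CMPs. Past 2-fold were 3, 0, 4 and 4 of 7 targets in the 4 comparisons, all higher, beside 21.6%, 19.1%, 31.8% and 27.3% of all genes. Myb itself was at 0.16, -0.35, -0.01 and -0.53 in these comparisons. Cd34, on which the cells were gated, is among the targets past 2-fold in each comparison that had any. The coactivators Ep300 and Crebbp, which MYB binds, stayed within 2-fold in each comparison, and Mybl2, the cell cycle relative of Myb, had 81.3, 65.7, 33.5 and 64.1 CPM, lower in P2- CMPs than in P2- MEPs (log2 ratio -1.28).

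Bcl11a fell from MEPs to CMPs and from P2- to P2+ cells. This zinc finger repressor, on chromosome 11 (24078056 to 24174123, plus strand), is known for silencing embryonic and fetal globin genes and is also needed for lymphoid development. MEPs had 217.96 CPM when P2- (95% interval 212.8 to 223.3) and 194 CPM when P2+ (189 to 199), and CMPs had 146 CPM (141 to 152) and 98.02 CPM (94.8 to 101). No intervals overlapped, and the order was the reverse of that of Mycn. The lowest, median and highest MEP had 10.8, 198 and 465 CPM when P2- and 0, 187 and 472 CPM when P2+. For CMPs these were 0, 133 and 349.8 CPM and 0, 77.8 and 347.1 CPM. A read was nevertheless found in 55 of 56, 45 of 47, 24 of 27 and 38 of 42 cells, so the populations differed more in reads per cell than in the number of cells with a read. P2+ set against P2- cells gave a log2 ratio of -0.17 (-0.22 to -0.12) in MEPs and -0.57 (-0.65 to -0.50) in CMPs. For CMPs over MEPs it was -0.58 (-0.64 to -0.51) in P2- cells, or -1.09 with ERCC reads as denominator, and -0.99 (-1.05 to -0.93) in P2+ cells, at the edge of 2-fold and at -1.01 without the highest cell of each population. Antisense overlap with 4930538E20Rik covers 2.398% of its exon bases.

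A list of 5 genes set up for factors upstream of Bcl11a also took in Hbs1l, a neighbour of Myb. Of its genes 4 were abundant enough to compare, and Klf1 and Lin28b passed 2-fold in a comparison. This made 0, 2, 1 and 2 of 4 genes in the 4 comparisons, beside 21.6%, 19.1%, 31.8% and 27.3% of all genes. Klf1, which activates Bcl11a in red cells, had 478, 243.5, 87.4 and 4.59 CPM, so that its log2 ratio of P2+ CMPs over P2+ MEPs was -5.73. A single P2+ CMP held 82.6% of the last of these. Klf1 was read in 2 of 42 P2+ CMPs, whereas Bcl11a was read in 38. The correlation of Bcl11a with Klf1 was 0.29 over all cells, but -0.14, 0.12, -0.08 and -0.04 within the populations. Lin28b, a fetal RNA-binding protein known to restrain BCL11A translation, had 61.0, 51.5, 65.2 and 23.2 CPM and was lower in P2+ CMPs than in P2- CMPs (log2 ratio -1.49) and P2+ MEPs (-1.15). Igf2bp1 and Hbs1l, the latter beside Myb in the genome, stayed within 2-fold. The genes most like Bcl11a were Gas5 (0.36), Ugcg (0.35) and Tfrc (0.34), with mean correlations within populations of 0.15, 0.17 and 0.11.

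The repressor Zbtb7a, also called LRF and encoded on chromosome 10 (81135220 to 81152995, plus strand), silences fetal globin independently of BCL11A. MEPs had 46.1 CPM when P2- (95% interval 43.7 to 48.6) and 36.5 CPM when P2+ (34.4 to 38.7), and CMPs had 43.3 CPM (40.3 to 46.4) and 36.04 CPM (34.1 to 38.04). The P2- populations overlapped each other, as did the P2+ populations. Median cells had 36.2, 32.3, 24.02 and 23.02 CPM, the highest 155, 175, 166 and 218.8 CPM and the lowest 0 in each population. A read was found in 50 of 56, 38 of 47, 22 of 27 and 27 of 42 cells. The ratio of P2+ to P2- cells, as log2, was -0.34 (-0.45 to -0.22) in MEPs and -0.27 (-0.39 to -0.14) in CMPs, and that of CMPs over MEPs was -0.09 (-0.22 to 0.04) and -0.02 (-0.13 to 0.10). With ERCC reads as denominator these were -0.95, 0.07, -0.60 and 0.41, so that the direction between the CMPs and among P2+ cells rests on the scaling. In P2+ CMPs 1 cell gave 24.1% of the Zbtb7a reads.

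Sox6 was at the limit of detection. This HMG-box factor, on chromosome 7 (115470872 to 116038796, minus strand), acts with BCL11A on embryonic globin and is better known in maturing erythroblasts. It had 160 reads in 6 P2- MEPs (5.23 CPM), 0 reads in 47 P2+ MEPs, where a count of 0 allows 3 cells or 6.38%, 40 reads in 1 P2- CMP (2.18 CPM) and 110 reads in 3 P2+ CMPs (3.03 CPM). The highest cells had 73.5, 0, 57.9 and 46.9 CPM and the median cell 0 in each population. Exact 95% intervals of the share of cells with a read were 4.03 to 21.9%, 0 to 7.55%, 0.0937 to 18.97% and 1.498 to 19.5%, and all of them overlapped. The pooled ratios therefore rested on a few cells. P2+ MEPs were at least 55.02-fold below P2- MEPs and at least 31.8-fold below P2+ CMPs, and the log2 ratio of CMPs over MEPs among P2- cells was -1.26 (-1.80 to -0.75), which rested on that single P2- CMP. Without the highest cell of each population P2- CMPs had 0 reads, and the bounds, as log2 ratios, were -4.38 for this comparison, -5.19 for P2+ over P2- MEPs and 3.98 for P2+ CMPs over P2+ MEPs. Its relatives were low as well. Sox13 had 2.61, 6.21, 5.95 and 10.0 CPM and Sox5 had 4.25, 3.77, 1.04 and 0 CPM, and the Zbtb7a relative Zbtb7b had 1.34, 0, 4.64 and 5.45 CPM.

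**Figure D4:**
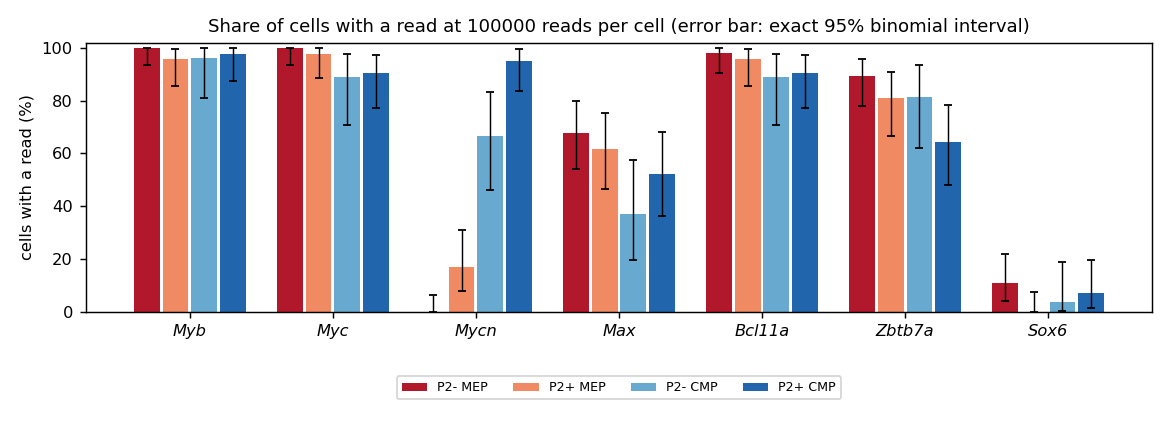
Percent of cells with at least 1 read of each gene after thinning to 100000 reads per cell, in the 4 populations. Bars are shares and error bars exact 95% binomial intervals. Mycn went from 0% to 95.2% of cells, Sox6 stayed under 11%, and Myb, Myc and Bcl11a were read in at least 88.9% of the cells of each population.

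Of the repressors, BCL11A and ZBTB7A act through the nucleosome remodelling and deacetylase (NuRD) complex and other corepressors. All 19 genes of this kind that were examined were abundant enough to compare, and 0 of them passed 2-fold between P2+ and P2- cells in either compartment, where 21.6% of all 11860 genes did in MEPs and 19.1% in CMPs. Of the 8959 genes that averaged at least 5 reads per cell, which include all 19, 13.3% and 10.1% did. Among them were the most abundant, Rbbp7 (512, 415, 576 and 661 CPM), a histone-binding subunit, Dnmt1 (265.3, 338.4, 313.2 and 315.3 CPM), the maintenance DNA methyltransferase, and Chd4 (245.96, 291.6, 229.8 and 229.1 CPM), the remodelling ATPase. Between compartments Mbd2, a methyl-DNA binding subunit, was lower in CMPs in both comparisons (log2 ratios -1.01 and -1.71), Rcor1, the partner of the demethylase LSD1, was lower in P2- CMPs (-1.08) and Mta3, a NuRD subunit, in P2+ CMPs (-1.08). These were 2 of 19 in each comparison, beside 31.8% and 27.3% of all genes and 22.9% and 18.6% of the 8959. Among P2- cells the count was 0 with equal weight per cell, 1 with DESeq2 size factors and 3 without the cell of conflicting label. The median over the 19 genes was -0.02, -0.0048, -0.03 and -0.26 in the 4 comparisons. With ERCC reads as denominator it was -0.63, 0.33, -0.55 and 0.17, beside -0.57, 0.30, -0.40 and 0.44 for all genes. The direction between the CMPs and among P2+ cells therefore rests on the scaling. Under this denominator 1, 1, 2 and 5 of the 19 passed 2-fold, beside 29.3%, 21.2%, 37.1% and 31.8% of all genes.

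Of the globin targets, the embryonic genes were barely transcribed. Of these, Hbb-bh1, Hbb-y and Hba-x had 4.31, 1.63 and 0.817 CPM in P2- MEPs and at most 0.570 CPM in the other populations, and were read in at most 5 cells of any population. Among adult genes Hbb-bs had 65.6 and 111 CPM in P2- and P2+ MEPs and 0.545 and 0.605 CPM in P2- and P2+ CMPs, whereas Hbb-bt had 9.51, 9.79, 232.2 and 121 CPM. These 2 genes are near-identical copies, as are Hba-a1 and Hba-a2, and reads that fit both are lost or split, so that the division between them is uncertain. Bcl11a was read in most cells of each population, and P2- MEPs had the highest level both of Bcl11a and of these embryonic genes. A part of Bcl11a in the globin levels was not tested.

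The 7 genes were counted against all genes at the 2-fold mark. Between P2+ and P2- MEPs 2 of 7 were past 2-fold, Mycn higher and Sox6 lower, where 21.6% of the 11860 genes were (15.1% higher and 6.58% lower). Between P2+ and P2- CMPs 0 of 7 were, where 19.1% of genes were (9.79% higher and 9.34% lower). Between P2- CMPs and P2- MEPs 2 of 7 were, again Mycn higher and Sox6 lower, against 31.8% of genes (22.5% higher and 9.28% lower). Between P2+ CMPs and P2+ MEPs 2 of 7 were, Mycn and Sox6 both higher, against 27.3% (17% higher and 10.3% lower). With 7 genes, 2 past 2-fold is near the share of all genes and is no result about them. The comparisons share populations and are not independent of one another. With ERCC reads as denominator the log2 ratio of P2+ over P2- MEPs was -0.81 for Myc, -0.78 for Bcl11a and at least 6.06 for Mycn, each moved by over 1.5 times. The median of the 7 log2 ratios was -0.17, 0.01, -0.58 and -0.39 in the order of the comparisons. Single cells carried 3 to 6 of the 7 transcripts, with a median of 5 in every population. Myb, Myc and Bcl11a were read together in 55 of 56, 43 of 47, 20 of 27 and 34 of 42 cells, and Bcl11a with Zbtb7a in 49, 36, 20 and 26 cells.

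**Figure D5:**
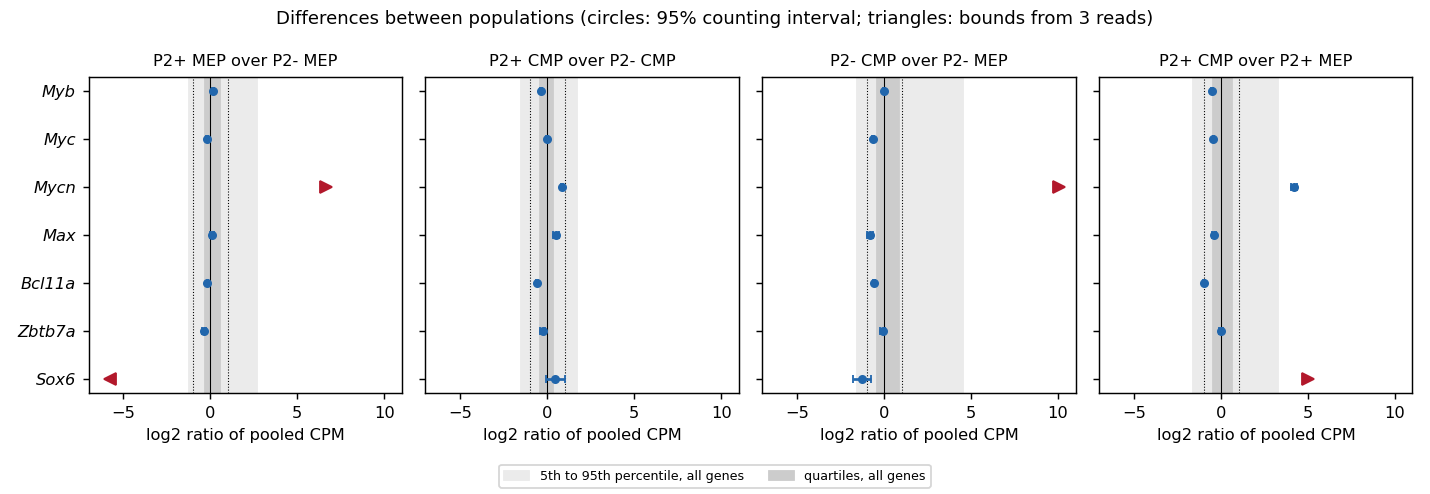
Log2 ratios of pooled CPM of the 7 genes in the 4 comparisons. Circles are ratios with exact 95% counting intervals, triangles are bounds where a population had 0 reads, dotted lines mark 2-fold, and grey bands show the quartiles and the 5th to 95th percentiles of all 11860 genes. Mycn lies outside the wider band in the 3 comparisons that include MEPs.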

How the data were processed

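Single E14.5 fetal liver cells were sequenced with a version of Smart-Seq2 in which ERCC spike-ins were added. The counts deposited by the authors are raw, without normalization, with 1 column per cell, beside alignment totals and the percent of unmapped reads per cell. Per the labels and the methods, reads were trimmed with Trimmomatic (0.36), aligned with STAR (2.4.2a) to GRCm38 plus ERCC, and counted with HTSeq (0.6.1p1) on exons of a GENCODE annotation, ignoring strand. Of the uniquely mapped reads 25.6% were ambiguous and 7.40% fell on no feature. These tallies were left out of all totals.

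Cells with fewer than 250000 reads, over 25% unmapped reads or over 15% ERCC reads were removed, and 172 of 175 remained. Counts were summed per population. Intervals at 95% were exact Poisson (levels), conditional binomial (ratios) and Clopper-Pearson (shares). For a bound, 3 reads stood in for 0. The comparison took in 11860 genes of mean count 1 or more, and 2-fold was the mark used, with no test, since each population is 1 sample. Lengths came from a later GENCODE release than the one counted on, on the same build. Cells were sorted singly into wells, so no doublet caller and no clustering was run. The members and gene lists were chosen with earlier results of these data known. Genes named from a list were those past 2-fold or among its 3 of highest level, a few others, such as 3 antagonists and 4 targets of MYC, were named after their values were seen, and the genes most like a member were the 3 of highest Spearman correlation over all cells. Alternatives were equal weight per cell, DESeq2 (1.42.0) size factors, edgeR (4.0.16) TMM factors, all deposited cells, leaving out single cells, other denominators, thinning depths and count filters. Python 3.11.15 and R 4.3.3 were used, and the scripts were tested on simulated data.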

Additional observations from a re-analysis of the deposited data

Results flagged for a closer look

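Myb stood apart because its log2 ratio of P2+ over P2- had opposite signs in the 2 compartments, 0.16 in MEPs and -0.35 in CMPs. With ERCC reads as denominator these values were -0.45 and -0.02, so that the opposite signs rest on the scaling. Sox6 stood apart because its log2 ratio of CMPs over MEPs was -1.26 among P2- cells, while among P2+ cells it was at least 4.99, a bound set against 0 reads in P2+ MEPs. With 1 sample per population the difference was not tested in either case. The Sox6 values came from 6, 0, 1 and 3 cells with a read in the 4 populations, MEPs first and P2- before P2+.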

How the results depend on the processing

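No paired analysis was possible because each population is 1 pooled sample and the labels give no shared replicate numbers. Of the alternative log2 ratios of the 7 genes, 14 changed sign and 7 crossed 2-fold. Without the highest cell of each population 1 of 7 genes passed 2-fold between P2+ and P2- CMPs, Sox6 at 3.18, a bound against 0 reads since its single P2- CMP was left out. The Sox6 bounds were then -5.19 between P2+ and P2- MEPs and 3.98 between P2+ CMPs and P2+ MEPs, where Bcl11a passed 2-fold too, at -1.01, for 3 of 7. With ERCC reads as denominator, chosen after seeing the data, 1 of 7 passed between P2+ and P2- CMPs, Mycn at 1.18, and 5 of 7 passed between P2- CMPs and P2- MEPs, where Myc was at -1.16, Max at -1.31 and Bcl11a at -1.09. This denominator moved the median of all genes by -0.62 (P2+ over P2- MEPs), 0.33 (P2+ over P2- CMPs), -0.51 (P2- CMPs over P2- MEPs) and 0.43 (P2+ CMPs over P2+ MEPs), and the share of higher calls from 69.6%, 51.2%, 70.8% and 62.2% to 31.8%, 70.2%, 43.6% and 81.9%. It reversed the sign for Myb (-0.45) and Max (-0.51) between the MEPs, and gave 0.04 for Max and 0.41 for Zbtb7a between P2+ CMPs and P2+ MEPs. In P2+ over P2- MEPs it moved each of the 7 genes by over 1.5 times. Near 0, Myc between the CMPs was -0.09 with equal weight per cell and -0.08 with DESeq2 size factors, and Myb between P2- CMPs and P2- MEPs was 0.14 and 0.06. With a mean count of at least 5, which tests fewer genes, 1192, 907, 2054 and 1667 genes passed 2-fold in place of 2566, 2269, 3771 and 3242. With no filter 3873 passed between the MEPs and 3626 between the CMPs. The Mycn share of P2+ CMPs was between 36.3% and 49.5% over its alternatives. Sox6 was limited by its few cells with a read, the same number with thinning to 100000 reads per cell and without, whereas Zbtb7a was read in 64.3% of P2+ CMPs with thinning and 81.0% without.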
